A study of Homo sapiens with 24 samples.

Results

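RNA of the higher-numbered sucrose gradient fractions 7 and 8 was compared with that of fractions 3 and 4 in 293T cells whose DIS3 was restored as the wild-type protein. 293T is a human embryonic kidney cell line, and a gradient fraction is a slice of a tube in which ribosomes and other particles separate by size and density. The comparison took the 12 libraries labelled WT of the 24 in the series: 3 replicates each of fractions 7 and 8 (6 libraries) against 3 each of fractions 3 and 4 (6 libraries), chosen by their labels alone. All cells carried the short hairpin RNA DIS3-sh2, which knocks down DIS3, and so did the other 12 libraries, in which the D146N mutant took the place of the wild-type protein. RNA was cytoplasmic, ribosomal RNA was depleted, and no group without the hairpin was analysed here, so these are knockdown-and-rescue cells rather than unaltered ones.

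In such gradients free messenger ribonucleoproteins and small particles separate from ribosomal subunits, single ribosomes and polysomes, and where an RNA sediments depends on the particle that carries it. The labels do not say what each numbered fraction held or from which end of the tube the numbers run. DIS3 is the nuclease at the base of the RNA exosome, a complex that degrades RNA from the 3' end and processes the ends of small nuclear, nucleolar and ribosomal RNAs. It has an exonuclease and an endonuclease centre, and D146N replaces an aspartate of the latter.

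Each gene is given on 2 scales, because the composition of the libraries differed strongly between the sides. Its share of the library is given in CPM, parts in 1000000 of all counts, and the log2 fold in share compares those shares. All counts include 8 doubled rows, which repeat the counts of another row. These held 12.8 to 13.1% of counts in WT fractions 3 and 4 and 23.8 to 26.3% in WT fractions 7 and 8, which lowers folds in share. Counting them once moved the log2 ratio of 7SL RNA shares from -0.42 to -0.19. The scaled log2 fold compares the same counts after TMM normalization, which sets the fold of the typical gene near 0. Both folds are fractions 7 and 8 over fractions 3 and 4, with the standard error (SE) of the edgeR quasi-likelihood fit, and a gene was called at a Benjamini-Hochberg adjusted p under 0.05 over 18907 genes. Rose and fell refer to the scaled values unless share is named, and called on both scales means called in the same direction on each. The 2 scales lay 2.66 log2 units apart, a 6.33-fold shift. Where nothing says that replicates came from separate cultures, p-values measure only the spread between these libraries.

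Messenger RNAs of ribosomal proteins and of several translation factors begin with a C followed by a run of pyrimidines, the 5' terminal oligopyrimidine (TOP) motif, through which growth signals control their translation. The starts of a few members that differed in direction are shown, since mRNAs of most ribosomal proteins and of 2 elongation factors went opposite ways in these libraries. Each window holds the 15 bases before the annotated start and the 15 from it (RefSeq, GRCh38.p14, 5' to 3' on the strand of the gene), and capitals mark the unbroken pyrimidines that begin at the start. RPS12, RPS6 and RPL3 were chosen after their values were seen. The first 3 genes below were higher on both scales.
RPLP1 (chr15:69452803-69452832, plus strand): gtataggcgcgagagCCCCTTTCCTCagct
RPL12 (chr9:127451392-127451421, minus strand): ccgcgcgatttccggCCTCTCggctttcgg
RPS12 (chr6:132814554-132814583, plus strand): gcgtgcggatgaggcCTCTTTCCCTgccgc

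Of the next 3 ribosomal protein genes, RPS23 was higher on both scales, RPS6 on the scaled values alone, and RPL3 was lower on both.
RPS23 (chr5:82278340-82278369, minus strand): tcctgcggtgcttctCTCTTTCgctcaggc
RPS6 (chr9:19380222-19380251, minus strand): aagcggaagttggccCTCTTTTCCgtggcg
RPL3 (chr22:39319609-39319638, minus strand): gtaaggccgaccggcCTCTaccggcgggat

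The next 3 code for elongation factors and for TPT1, a translation-associated protein, and the first pair was lower on both scales.
EEF1A1 (chr6:73521018-73521047, minus strand): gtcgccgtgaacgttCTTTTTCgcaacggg
EEF2 (chr19:3985449-3985478, minus strand): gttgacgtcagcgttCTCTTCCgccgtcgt
TPT1 (chr13:45341169-45341198, minus strand): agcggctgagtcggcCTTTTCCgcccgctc

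For contrast, the starts of these genes, whose share was far lower in fractions 7 and 8 than in 3 and 4, are shown too.
DIAPH1 (chr5:141618986-141619015, minus strand): ggcgcggcggctggcTaaagagcgactggg
CENPF (chr1:214603180-214603209, plus strand): agtttggttgagaccagaagcgggcgaatt
AHNAK (chr11:62545812-62545841, minus strand): gatggcccccgccccagagcctggcccggc

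A C at the annotated start followed by 4 bases that are each C or T was searched for on the gene's own strand alone, in promoter windows that matched members by symbol. Of all 22114 windows 880 (3.98%) held it, and of the 7720 tested coding genes with a window 412 (5.34%) did. Among cytosolic ribosomal protein genes 41 of 53 (77.4%) held it, and their median scaled log2 fold was 4.15 with the run and 3.89 without it. In the list of translation factors and related TOP mRNAs 13 of 14 (92.9%) held it, with a median of -0.16. Outside both lists 358 of 7653 genes (4.68%) held it, and their medians were -0.29 with the run and -0.37 without. The run thus occurred among mRNAs that rose and among mRNAs that fell. An annotated start is not a measured one, and a match is not a shown site.

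One locus on chromosome 17 gave the largest scaled rise among genes averaging at least 20 CPM, and its microRNA hairpin is shown because 3 annotated genes there share bases. SCARNA16 is a guide RNA of Cajal bodies, where small nuclear RNAs are modified, and lies wholly inside SNHG20, a spliced host transcript. MIR6516 is annotated in the same place, and 77 of its 81 bases lie within SCARNA16. Its hairpin follows in RNA letters (RefSeq, GRCh38.p14, plus strand, 5' to 3'), with both mature arms in capitals.
MIR6516 (chr17:77089417-77089497): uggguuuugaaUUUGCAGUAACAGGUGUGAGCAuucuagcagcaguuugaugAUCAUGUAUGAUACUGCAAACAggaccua

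WT library totals ran from 21.2 to 33.0 M counts. The similarity of libraries was measured as the median squared difference between a pair relative to what counting noise gives, which is about 1 for a pair that differs by counting alone. Pairs within WT fractions 3 and 4 gave 3.79 to 4.48, and pairs within WT fractions 7 and 8 gave 1.34 to 1.81 without fraction 8 replicate 3. That library stood apart from the other 5 of its side, at 6.99 to 9.74, so some results, though not all that it moved, are also given without it. WT pairs across the sides gave 240.3 to 336.5. The D146N libraries ran opposite to their labels: WT fractions 7 and 8 resembled D146N fractions 3 and 4 (3.99 to 9.29), WT fractions 3 and 4 resembled D146N fractions 7 and 8 (7.72 to 9.68), and pairs of the 2 genotypes with the same fraction labels gave 268 to 388. Whether fractions are numbered alike in the 2 genotypes cannot be told apart from an effect of the genotype, and every direction below is that of the libraries as labelled.

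The labelled cell type was checked against marker genes. The 9 genes listed for HEK293 lines summed to 0.252 to 0.264% of counts in fractions 3 and 4 and 0.0122 to 0.0169% in fractions 7 and 8. Most of it came from EEF1A1, VIM and HSPA8, which many cell types express. EEF1A1 alone had 2081–2192 CPM in fractions 3 and 4, and the next highest, VIM, had 209.9–226.9 CPM. The sum is thus mainly EEF1A1, says little of the cell type and cannot be set against the sums of other marker lists. The keratins KRT8 and KRT18 and the cadherin CDH2 had 30.5–37.1, 19.5–23.7 and 15.7–20.8 CPM in fractions 3 and 4. In fractions 7 and 8 they had at most 4.68, 4.91 and 1.58 CPM. The neurofilament genes NEFL and NEFM and the kidney factor PAX2 were near 0, at most 2.17, 1.62 and 1.62 CPM in any of the 12 libraries. Genes that define hepatocytes differed in level. All 13 had counts, 11 were tested, 1 rose and 7 fell scaled. They summed to 0.0558 to 0.0595% and 0.00255 to 0.0104% of counts, the highest of the latter in fraction 8 replicate 3. APOA1, APOA2, TTR, APOH and HP were near 0 as well, at most 1.98, 2.04, 1.37, 0.592 and 0.454 CPM in any of the 12 libraries. SERPINA1, FGA, FGB, FGG, AHSG and TF had highest values between 3.78 and 23.9 CPM. APOB, the lipoprotein scaffold of liver, went from 374–404 CPM (median 392.2) to 14.8–63.5 CPM (median 18.2), and ALB, serum albumin, from 115–128 CPM (median 120.5) to 6.73–27.1 CPM (median 7.6). Some defining liver genes were thus read in libraries labelled as a kidney line, while others were near 0. APOB and ALB moved with the sides, and their part in the results was not tested. Bulk RNA does not tell whether a few cells or all of them carried these RNAs. Erythroid, leukocyte and fibroblast markers each summed to at most 0.00243% of counts in any WT library, with 3 of 7, 3 of 9 and 1 of 10 genes at 0 throughout.

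DIS3 itself was read in every library. It had 91.4–112 CPM (median 94.7) in fractions 3 and 4 and 4.54–6.28 CPM (median 5.35) in fractions 7 and 8, with no overlap. Its scaled log2 fold was -1.48 (SE 0.0825, adjusted p = 5.77e-18) and its log2 fold in share -4.17. In D146N it averaged 8.86 CPM in fractions 3 and 4 and 99.3 CPM in fractions 7 and 8. Gene counts do not tell the rescue transcript from the cell's own, so they check neither the knockdown nor the mutation.

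Genome-wide, 6549 genes (34.6%) rose and 7431 (39.3%) fell on the scaled values, 13980 (73.9%) in either direction. By share, 1448 genes (7.66%) were higher and 15808 (83.6%) were lower. The median gene stood at -0.18 scaled and at -2.83 in share. Every gene with a higher share had also risen on the scaled values, as the shift of 2.66 between the scales implies. Thus 1448 (7.66%) were called higher and 7431 (39.3%) lower on both scales. The scales are 2 views of the same counts, so a call on both is not separate evidence. A further 3523 genes were called higher scaled and lower in share, and no gene was called the other way round. The genes called higher on both scales took 13.3% of counts in fractions 3 and 4 and 60.6% in fractions 7 and 8, while those called lower on both went from 29.8% to 2.11%. These shares come from the contrast that chose the genes and describe only how far the composition moved.

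The kinds of gene differed in how often they were called. Of 13343 tested protein-coding genes, 507 (3.80%) were higher and 6382 (47.8%) lower on both scales, and together they went from 36.8% to 20.7% of counts. Among small nucleolar RNA genes 58 of 162 were higher and 3 lower on both scales, and among small nuclear RNA genes 19 of 36 were higher and 5 lower. Of 1396 long noncoding RNA genes 224 were higher and 138 lower, and of 682 pseudogenes 167 were higher and 191 lower. Pseudogene rows share reads with their parent genes, so they are uncertain. The next paragraphs take the classes in turn, with the share of all counts for each class tested by permuting fraction labels within replicate sets (exact, two-sided). The smallest p that this exact permutation test can give is 0.00926, adjusted p = 0.0104 over 45 classes. Of these classes 8 had a higher and 35 a lower share, and 2 did not pass. In 40 of the 45 p was at that smallest value, so it does not rank those classes. Permuting the labels over all 12 libraries without regard to the sets also left 40 at its smallest p, so it is little of a check. It changed none of these 45 calls. Counting doubled rows once in the library total ended 2 of them, with no adjustment over classes: the log2 ratio of shares went from -0.16 to 0.0648 for complex I subunits (exact permutation p = 0.0926) and from -0.30 to -0.0798 for actin-binding proteins (exact permutation p = 0.222). The same change brought in both classes that had not passed, spliceosomal small nuclear RNA at 0.30 (exact permutation p = 0.0185) and mitochondrial import proteins at 0.29 (exact permutation p = 0.00926). Member counts of each list below stand against 34.6% of all genes rising, 39.3% falling and 83.6% lower in share. The lists were drawn up with earlier results of these data known. Their member counts and p-values are thus not independent support. The plot of class shares by library shows the classes that differed most.

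**Figure D1:**
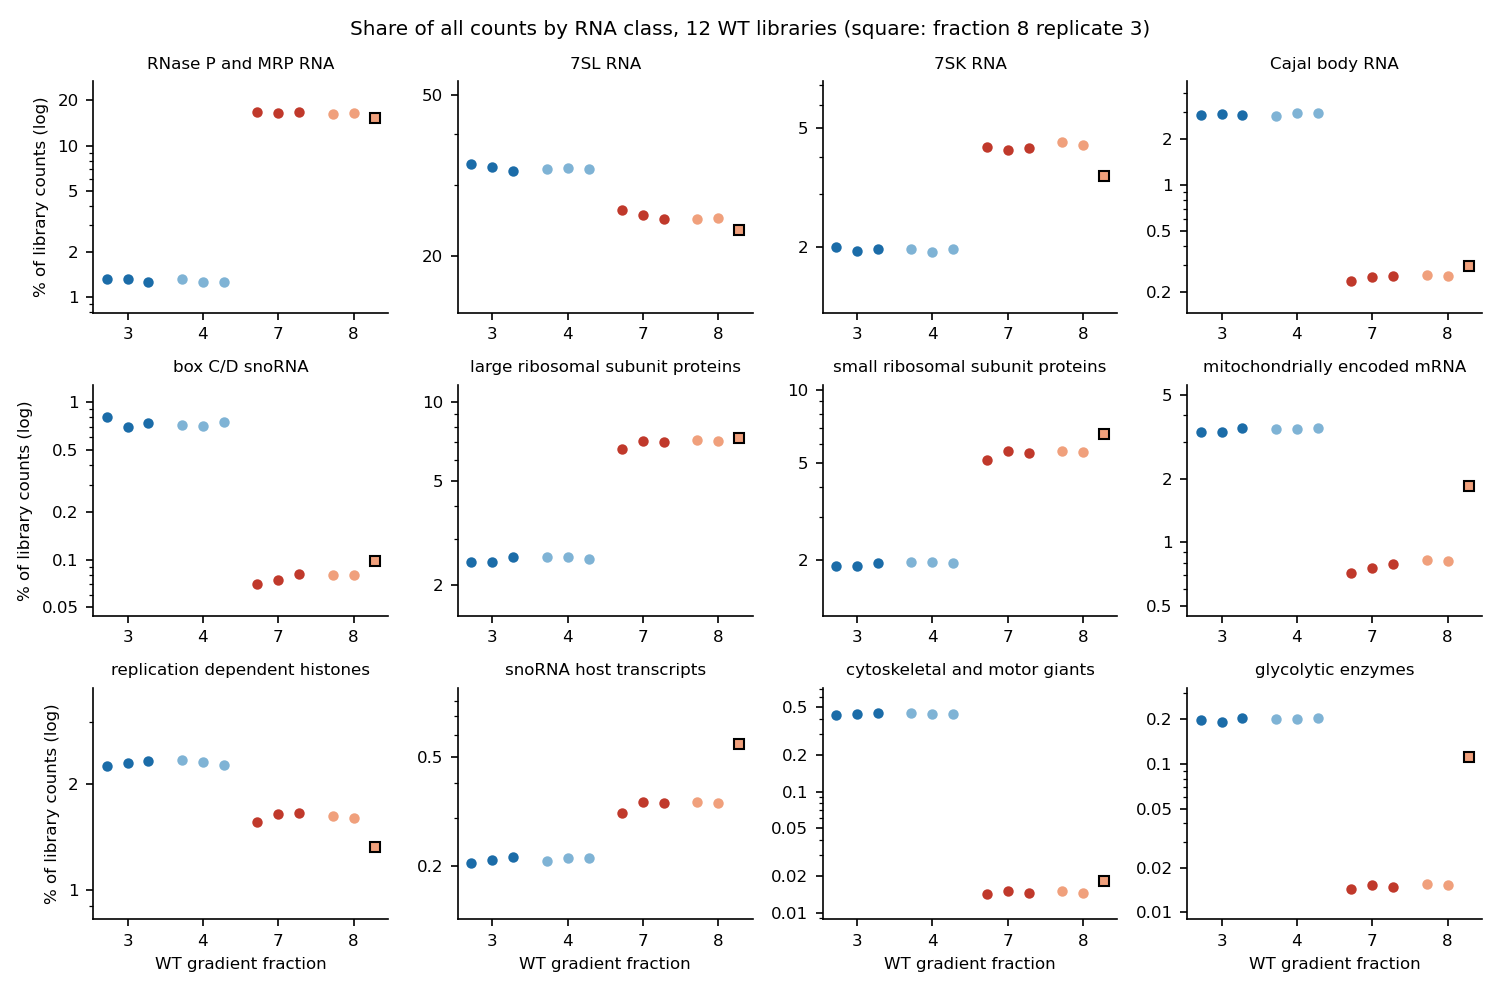
Share of all library counts (percent, log axis) of RNA classes in each WT library by gradient fraction; circles are libraries, the square is fraction 8 replicate 3 and each panel has its own axis. RNase P and MRP RNA stood near 1.29% in fractions 3 and 4 and between 15.3% and 16.7% in fractions 7 and 8.

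The RNA of 2 endonuclease particles accounted for the greatest gain among the 45 classes. RPPH1 (chr14:20343071-20343411 in GRCh38.p14), the RNA subunit of RNase P, which trims the 5' end of transfer RNA precursors, had 5574–5855 CPM (median 5766) in fractions 3 and 4. In fractions 7 and 8 it had 114840–134920 CPM (median 132640), with fraction 8 replicate 3 the lowest. The ranges were far apart, a 22.6-fold higher share (log2 4.50, SE 0.0324) and a scaled log2 fold of 7.20 (SE 0.124, adjusted p = 5.60e-33). RMRP (chr9:35657750-35658019) is the RNA of the related RNase MRP, which acts in the processing of ribosomal RNA. It went from 6851–7507 CPM (median 7203) to 30299–38503 CPM (median 32415), again without overlap, at 4.88 scaled and 2.20 in share. The 2 together went from 1.29 ± 0.0280% of counts (SD, n = 6) to 16.3 ± 0.488% (SD, n = 6), a 12.6-fold rise (exact permutation p = 0.00926). Here and below n = 6 counts libraries, 2 neighbouring fractions from each of 3 replicate sets, which are not shown to be independent. RPPH1 and RMRP each have a second row with the same counts to within 0.1% in every library, and rows of this kind were named once.

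7SK RNA, which holds the transcription elongation factor P-TEFb inactive, rose less. Its row RN7SK went from 19182–19889 CPM (median 19589) to 34507–44854 CPM (median 43048), at 3.81 scaled and 1.10 in share, and fraction 8 replicate 3 was again the lowest of its side. Telomerase RNA, TERC, the template of telomere synthesis, was named after its values were seen. It went from 244–249 CPM (median 247) to 577–761 CPM (median 717), at 4.21 scaled and 1.51 in share. Neither gene's groups overlapped. The RNA of the signal recognition particle, 7SL, which targets secretory proteins to the endoplasmic reticulum, was the most abundant class and changed sign with the scale. Its 3 rows rose by 2.05 to 2.33 scaled, yet their joint share was lower in every library of fractions 7 and 8, at 24.7 ± 0.926% against 33.0 ± 0.431% of counts (SD, n = 6 each). RN7SL1 stood at 2.33 scaled and -0.37 in share and RN7SL2 at 2.18 scaled and -0.51 in share. The rows are near-identical, so reads may have been divided between them.

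Guide RNAs of the nucleolus and the Cajal body went in both directions. SCARNA2, a Cajal body guide (chr1:109100193-109100612), had 24617–25977 CPM (median 25215) in fractions 3 and 4 and 854–1157 CPM (median 891) in fractions 7 and 8, a share 27.1-fold lower with no overlap, and it fell on both scales (log2 -2.08 scaled and -4.76 in share). SCARNA9 stood at -2.09 scaled and -4.76 in share, while SCARNA7 stood at 3.22 scaled and 0.54 in share. Over the class, 11 of 15 tested rows rose and 4 fell scaled, with a median of 2.28, and the share went from 2.92% to 0.258% of counts, most of it SCARNA2 in fractions 3 and 4. SCARNA16 went the other way by more than any other guide RNA tested, from 0.443–1.24 CPM (median 0.903) to 90.1–122.8 CPM (median 118). Its share was 137-fold higher (log2 7.10, scaled 9.80, adjusted p = 4.37e-20). MIR6516, whose hairpin is printed above, stood at 9.82 scaled and 7.12 in share, and the host SNHG20 went from 6.52–9.08 CPM (median 7.55) to 102–137 CPM (median 133), at 6.79 scaled and 4.08 in share. Since the 3 annotations overlap, their counts are not separate evidence and do not tell which transcript was read.

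Box C/D RNAs guide 2'-O-methylation of ribosomal RNA, and 65 of the 85 tested rose and 2 fell scaled (median 1.91), whereas by share 23 were higher and 39 lower (median -0.74). SNORD3A, the U3 RNA that acts in cleavage of the ribosomal RNA precursor, went from 6298–7335 CPM (median 6585) to 447–642 CPM (median 516), without overlap and at -1.01 scaled and -3.69 in share. That row dominated its class, whose share went from 0.735% to 0.0809%. Box H/ACA RNAs, which guide pseudouridylation, rose in 65 of 76 tested rows and fell in 1 (median 3.16), and by share 35 were higher and 16 lower (median 0.51). SNORA74A stood at 4.56 scaled and 1.89 in share, SNORA73B at 4.47 scaled and 1.81 in share and SNORA12 at 3.35 scaled and 0.66 in share. The class went from 0.0133 ± 0.000612% to 0.0247 ± 0.00272% of counts (SD, n = 6 each, exact permutation p = 0.00926).

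Spliceosomal small nuclear RNA genes rose in 33 of 40 tested rows and fell in 5 scaled, with medians of 3.23 and, by share, 0.54. Their joint share did not pass the test, at 0.0287 ± 0.00240% against 0.0302 ± 0.00243% of counts (SD, n = 6 each, exact permutation p = 0.324). Single rows differed: RNVU1-29, a variant U1 gene, stood at 3.62 scaled and 0.92 in share, RNU1-4, a U1 gene, at 1.63 scaled and -1.07 in share, and RNU6-7, a U6 gene, at -2.46 scaled and -5.14 in share. These genes have many near-identical copies, so the split of reads among them is uncertain. Y RNAs, which bind the RO60 protein, and vault RNAs, which belong to the vault particle, made up a very small class that fell from 0.0157% to 0.0009% of counts. RNY1 stood at -3.89 scaled and -6.54 in share and RNY3 at -3.78 scaled and -6.39 in share. VTRNA1-3 went from 119–140.2 CPM (median 124) to 5.30–7.08 CPM (median 6.6), without overlap and at -1.60 scaled and -4.30 in share. The class held 2 rows that rose scaled and 4 that fell, and all 6 had a lower share.

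**Figure D2:**
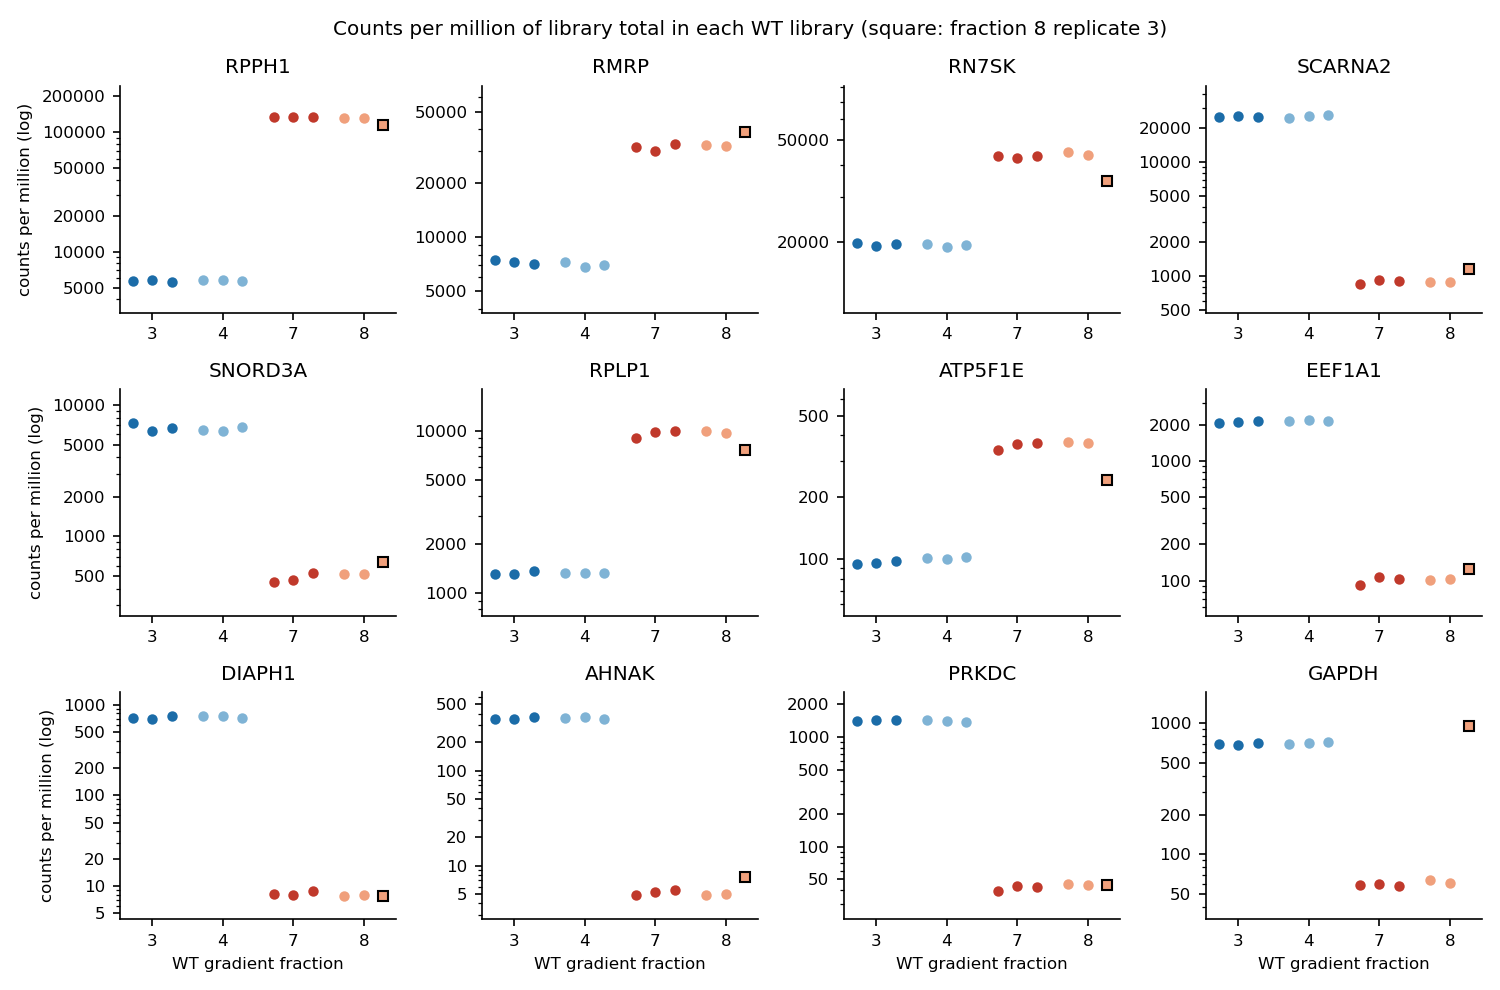
Counts in CPM (log axis, own range per panel) of 12 genes in each WT library by gradient fraction; circles are libraries and the square is fraction 8 replicate 3. RPPH1 and RPLP1 lay higher in every library of fractions 7 and 8, and AHNAK, DIAPH1 and SCARNA2 lower.

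Messenger RNAs of nearly all cytosolic ribosomal proteins rose, and most had a higher share. Of the 47 for the large subunit, 44 rose and 2 fell scaled and 42 were higher and 3 lower in share, with medians of 3.97 and 1.27. Of the 32 for the small subunit all rose scaled and 31 were higher in share, with medians of 4.02 and 1.34. The large subunit list went from 2.51 ± 0.0550% to 7.02 ± 0.232% of counts and the small subunit list from 1.92 ± 0.0362% to 5.68 ± 0.477% (SD, n = 6 each, exact permutation p = 0.00926 for either). Against these, 34.6% of all genes tested rose scaled and 7.66% were higher in share.

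RPLP1, an acidic protein of the ribosomal stalk, had 1304–1366 CPM (median 1333) in fractions 3 and 4 and 7603–10065 CPM (median 9806) in fractions 7 and 8. The ranges did not overlap, and its share was 7.06-fold higher (log2 2.82, SE 0.0476), at 5.52 scaled (SE 0.118, adjusted p = 1.40e-30). RPL12, which lies at the base of that stalk, went from 866–941 CPM (median 914) to 5404–5760.2 CPM (median 5693), at 5.33 scaled and 2.64 in share. Of the other abundant large subunit members, RPL27A stood at 4.97 scaled and 2.26 in share and RPL37A at 4.15 scaled and 1.45 in share. In the small subunit RPS2, near the messenger entry, stood at 4.55 scaled and 1.91 in share and RPS19, whose loss causes an inherited anaemia, at 4.49 scaled and 1.78 in share. RPS23, at the decoding centre, stood at 4.58 scaled and 1.87 in share and RPS12 at 5.10 scaled and 2.40 in share.

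The lists were not uniform. RPL4, a large subunit protein that lines the exit tunnel, went from 764–823 CPM (median 814) to 38.9–79.8 CPM (median 41), and fell on both scales at -1.43 scaled and -4.08 in share. RPL3, at the peptidyl transferase centre, stood at -0.48 scaled and -3.14 in share, called lower on both. RPS6, the classic target of S6 kinase, rose by 2.59 scaled but did not pass by share, at -0.03 (adjusted p = 0.868), and without fraction 8 replicate 3 it was called lower in share, at -0.41 (adjusted p = 3.19e-21). RPL3, RPL4 and RPS6 were named after their values were seen. The spread within the large subunit list, from -1.43 to 5.52 scaled, exceeded that in the small subunit list, from 2.59 to 5.10, as the plot of ribosomal protein mRNAs shows.

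Translation factors and other products of TOP mRNAs lay near the background of all genes. Of 21, 9 rose and 10 fell scaled, and 4 were higher and 17 lower in share. Their medians were -0.16 and -2.76, against -0.18 and -2.83 over all genes tested. EEF1A1, which brings aminoacyl-tRNA to the ribosome, had 2081–2192 CPM (median 2151) and then 91.3–126 CPM (median 103), without overlap and at -1.67 scaled and -4.35 in share. EEF2, the translocation factor, stood at -1.55 scaled and -4.24 in share. TPT1 rose on both scales, at 3.93 scaled and 1.28 in share. RACK1, a scaffold bound to the small subunit, stood at 1.48 scaled and -1.09 in share, and fraction 8 replicate 3 held 2825 CPM of it where the other libraries of fractions 7 and 8 had a median of about 306. The class went from 0.799% to 0.279% of counts without that library, which itself held 0.776%.

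Mitochondria drew on 2 gene sets that differed. Of the 13 mRNAs of the mitochondrial genome, which code for core respiratory subunits, 4 rose and 8 fell scaled (median -0.40) and all 13 had a lower share. MT-CO1 and MT-CO3 encode subunits of cytochrome oxidase, at 0.34 scaled and -2.33 in share and 2.29 scaled and -0.36 in share, and MT-ND4 encodes a complex I subunit, at -0.40 scaled and -3.05 in share. Their joint share went from 3.41% to 0.780% without fraction 8 replicate 3, where it was 1.85%. The 2 mitochondrial ribosomal RNAs rested on that library: MT-RNR1 had 278 CPM there and 0.191 and 0.243 in the other fraction 8 libraries. Its scaled log2 fold of 0.59 was not called (adjusted p = 0.584), and it was -3.54 without that library (adjusted p = 0.00115). Ribosomal RNA was depleted before sequencing, so its residue measures depletion as well as content.

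Most nuclear genes for subunits of the respiratory chain and of mitochondrial ribosomes rose on the scaled values, where 34.6% of all genes did. For subunits of complex I, the entry of the respiratory chain, 33 of 37 rose and 4 fell (median 2.51), and for complexes II to V 35 of 43 rose and 4 fell (median 2.83). Without fraction 8 replicate 3, 35 of complexes II to V rose and 7 fell. By share these lists were divided, with 8 higher and 17 lower in the first and 22 higher and 18 lower in the second. ATP5F1E, the epsilon subunit of ATP synthase, went from 94.9–102 CPM (median 98.4) to 242–373 CPM (median 364), without overlap and at 4.51 scaled and 1.8 in share. COX7C of cytochrome oxidase stood at 3.6 scaled and 0.89 in share and UQCRH of complex III at 3.30 scaled and 0.61 in share. NDUFA4 stood at 3.95 scaled and 1.24 in share and NDUFB9 at 3.12 scaled and 0.43 in share. NDUFA4, the highest of the complex I list, is counted there although its protein is a subunit of cytochrome oxidase. Among import proteins 11 of 13 rose and none fell scaled, and without fraction 8 replicate 3, 11 rose and 2 fell. Their share went from 0.0489% to 0.0513% (exact permutation p = 0.0741, adjusted p = 0.0758). The exact permutation p was 0.0370 without fraction 4 replicate 2 and 0.0185 without fraction 7 replicate 1. TOMM7 stood at 3.90 scaled and 1.19 in share and TIMM9 at 3.70 scaled and 1.02 in share. Mitochondrial ribosomal proteins rose in 59 and fell in 13 of 78 scaled (median 1.54), while 13 were higher and 57 lower in share: MRPS7 stood at 4.30 scaled and 1.61 in share and MRPL33 at 4.18 scaled and 1.48 in share, but MRPL37 at -0.51 scaled and -3.15 in share.

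Histone mRNAs that are made in S phase and end in a stem loop instead of a poly(A) tail rose in 53 of 58 rows and fell in 1 scaled (median 2.23). By share 10 were higher and 43 lower, and the class went from 2.29 ± 0.0341% to 1.56 ± 0.124% of counts (SD, n = 6 each). H2AC19 rose by 2.74 scaled and stood at 0.03 in share, which did not pass (adjusted p = 0.518), H3C15 stood at 2.6 scaled and -0.11 in share and H4C14 at 1.37 scaled and -1.34 in share. Without fraction 8 replicate 3, H2AC19 was called higher in share, at 0.0885 (adjusted p = 7.48e-04), and H3C15 lost its call, at -0.0412 (adjusted p = 0.0918). Histone copies are near-identical, so single rows are uncertain. Replacement histones, made outside S phase, held 6 that rose and 4 that fell, all 10 with a lower share as 83.6% of all genes had: the variant H2AZ1 stood at 2.02 scaled and -0.65 in share.

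Other families of small proteins differed by member. Sm and LSm proteins, which form rings on small nuclear RNAs and on mRNA ends, rose in all 15 tested (median 2.88), from SNRPB at 1.09 scaled and -1.54 in share to SNRPD2 at 4.37 scaled and 1.66 in share. Within RNA polymerase II 7 of 12 subunits rose and 4 fell: the small subunit POLR2J stood at 4.77 scaled and 2.1 in share and POLR2B, a large subunit, at -1.33 scaled and -4.01 in share. These are the ends of that list, and whether product size bears on the fold was not tested. UBB, a polyubiquitin gene, stood at 1.53 scaled and -1.09 in share. Among actin-binding proteins 7 of 13 rose and 2 fell, with the monomer binder TMSB10 at 4.09 scaled and 1.37 in share and the Arp2/3 subunit ARPC3 at 3.49 scaled and 0.82 in share. Without fraction 8 replicate 3, 7 of this list rose and 3 fell, and its median went from 0.50 to 0.23. Proteasome subunits lay near the background, with 14 of 32 rising and 16 falling (median -0.10, all genes -0.18) and 31 lower in share. PSMA5 of the core stood at 1.43 scaled and -1.21 in share.

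Genes for the protein partners of the small RNAs differed by member, and their counts are few beside the 34.6% rising, 39.3% falling and 83.6% lower in share over all genes. Of 10 RNase P and MRP proteins 6 rose and 2 fell scaled and 8 were lower in share, with POP7 at 3.24 scaled and 0.59 in share and RPP30 at 1.21 scaled and -1.45 in share. Of 6 signal recognition particle proteins 3 rose, 3 fell and all 6 were lower in share, with SRP9, the Alu-domain partner, at 0.38 scaled and -2.29 in share and SRP72 at -0.87 scaled and -3.56 in share. The core proteins of guide RNA particles held 4 that rose and 5 that fell of 10, and the paralogs NOP56 and NOP58 stood at 0.70 scaled and -1.97 in share and -0.70 scaled and -3.39 in share.

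Host transcripts of snoRNAs, spliced RNAs whose introns yield the guides and many of which carry TOP-like starts, rose in 22 of 24 tested and fell in none scaled (median 3.03). By share 13 were higher and 6 lower (median 0.36), from 0.211% to 0.335% of counts without fraction 8 replicate 3 and 0.556% in it. GAS5 stood at 3.86 scaled and 1.19 in share, SNHG5 at 4.69 scaled and 1.98 in share and ZFAS1 at 4.41 scaled and 1.72 in share. Long noncoding RNAs chosen by name held 6 that rose and 8 that fell of 14 (median -0.56), not far from the 34.6% and 39.3% of all genes. MALAT1 and NEAT1, known from nuclear speckles and paraspeckles, stood at -1.94 scaled and -4.63 in share and -1.70 scaled and -4.38 in share, and the cytoplasmic NORAD at -0.59 scaled and -3.27 in share. Both nuclear RNAs were read in this cytoplasmic preparation on either side.

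**Figure D3:**
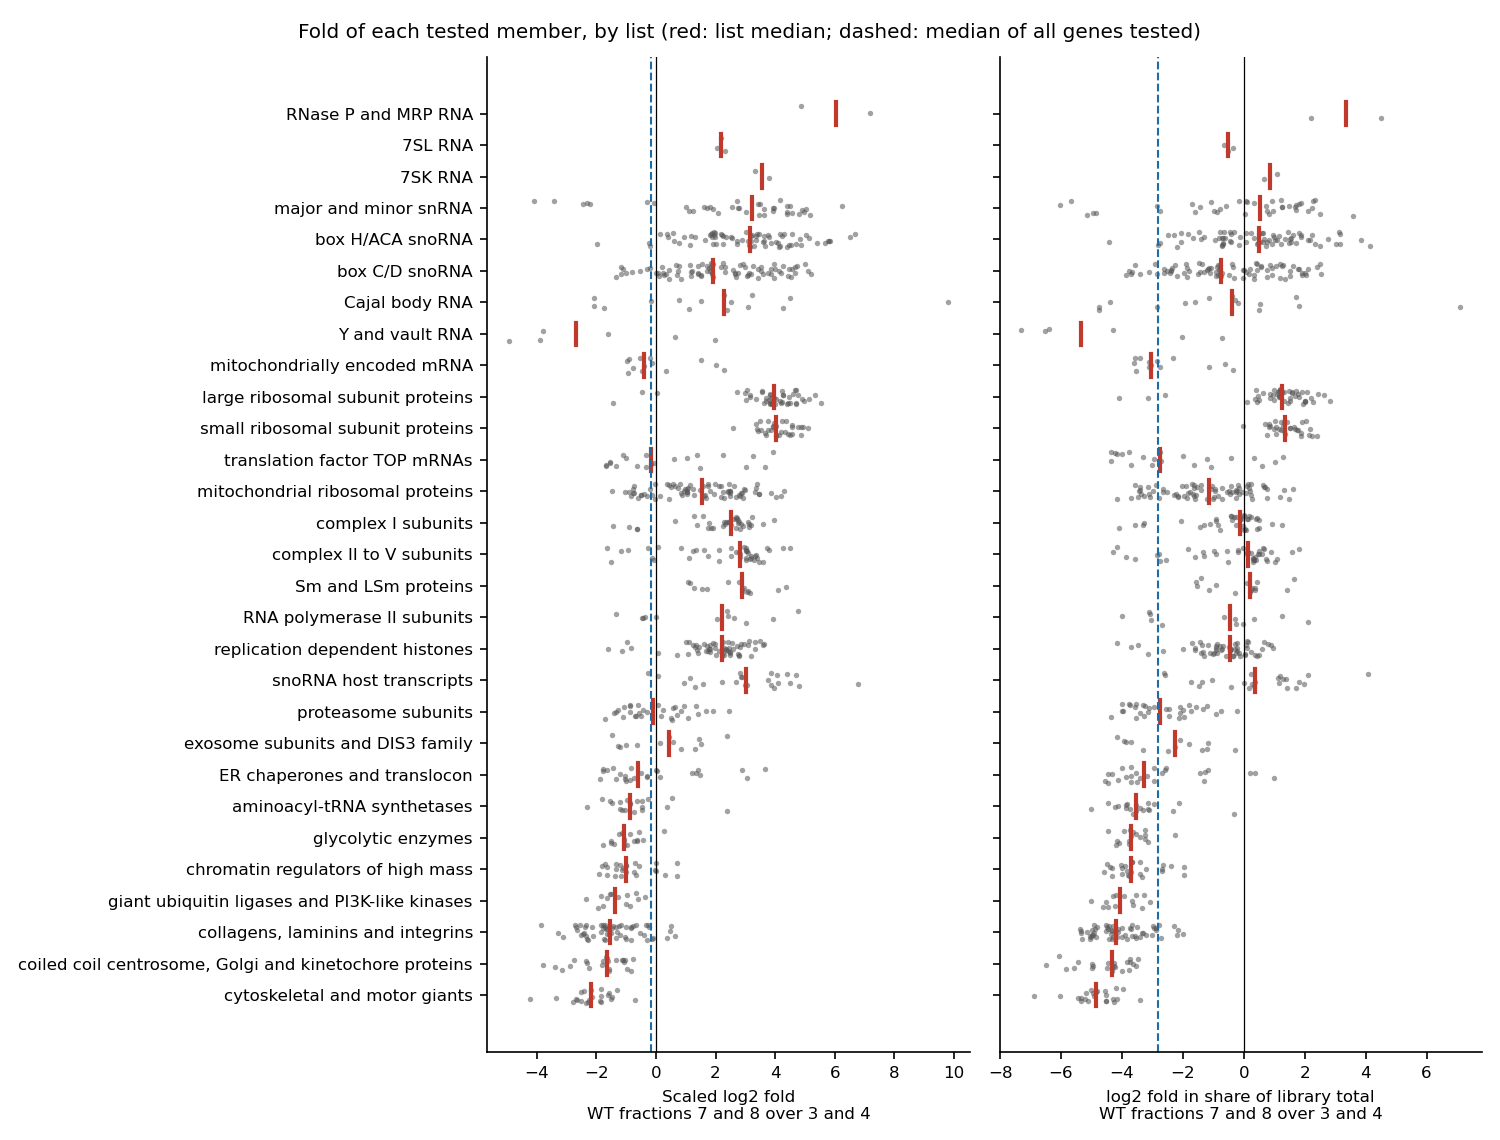
Log2 fold of fractions 7 and 8 over 3 and 4 for each tested member of the gene lists, scaled (left) and in share of the library (right); grey points are genes, red marks the list median and the dashed line the median of all genes tested, -0.18 and -2.83. The medians of the lists of cytosolic ribosomal and respiratory proteins lie to the right of the dashed line and those of large cytoskeletal and coiled coil proteins to the left.

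Among the mRNA lists other than markers, the lowest scaled medians belonged to large cytoskeletal and coiled coil proteins. All 23 coiled coil proteins of centrosome, Golgi and kinetochore fell on both scales (medians -1.63 and -4.31), where 39.3% of all genes did. They were listed with earlier results of these data known, so this is not independent support. Their joint share went from 0.285 ± 0.00495% to 0.00948 ± 0.000608% of counts (SD, n = 6 each), 30-fold lower (exact permutation p = 0.00926). CENPF, a kinetochore and spindle protein, went from 521–562 CPM (median 534) to 5.58–6.33 CPM (median 6.02), an 89.3-fold lower share with a wide gap between the groups. It stood at -3.80 scaled and -6.48 in share (adjusted p = 1.08e-31). TPR, the nuclear pore basket protein, stood at -3.38 scaled and -6.08 in share, and GOLGB1, the Golgi tether giantin, at -3.16 scaled and -5.85 in share.

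All 23 cytoskeletal and motor giants also fell on both scales (medians -2.17 and -4.84). AHNAK, a scaffold under the plasma membrane, went from 351–372 CPM (median 358) to 4.90–7.50 CPM (median 5.10), without overlap and at -3.36 scaled and -6.03 in share. DYNC1H1, the dynein heavy chain, stood at -2.29 scaled and -4.97 in share, MACF1, which links microtubules and actin, at -2.65 scaled and -5.33 in share, and SPTAN1, alpha spectrin, at -2.79 scaled and -5.46 in share. Formins, which nucleate actin filaments, were mixed on the scaled values, with 2 rising and 7 falling of 13, and all 13 had a lower share. DIAPH1 went from 697–755 CPM (median 727) to 7.77–8.80 CPM (median 8.00), an 89.9-fold lower share at -3.80 scaled and -6.49 in share, and DAAM1 stood at -2.72 scaled and -5.39 in share. DIAPH3, of the same family, stood at 0.22 scaled and -2.46 in share, called higher on the scaled values.

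Giant ubiquitin ligases and kinases of the PI3K-like family fell in all 14 (medians -1.39 and -4.06). PRKDC, the catalytic subunit of DNA-dependent protein kinase, went from 1382–1424 CPM (median 1420) to 39.1–45.7 CPM (median 44.1), at -2.34 scaled and -5.03 in share, with no overlap. HUWE1, a ubiquitin ligase, stood at -1.26 scaled and -3.94 in share, and BIRC6, an inhibitor of apoptosis with ligase activity, at -0.59 scaled and -3.27 in share. Among large chromatin regulators 3 rose and 19 fell of 25 (median -1.02), with the histone methyltransferase KMT2A at -1.36 scaled and -4.04 in share. The 14 scaled folds of the first list ran from -2.34 to -0.38.

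Metabolic and housekeeping lists were mostly lower. Glycolytic enzymes fell in 15 of 17 and rose in none (median -1.07), with ENO1 at -1.42 scaled and -4.09 in share and PKM at -1.25 scaled and -3.92 in share. GAPDH did not pass on the scaled values, at 0.28 (SE 0.413, adjusted p = 0.556). Its fraction 8 libraries held 63.6, 60.3 and 955.8 CPM, the last in replicate 3, and without that library it stood at -0.79 (adjusted p = 1.08e-30). Aminoacyl-tRNA synthetases, which charge transfer RNA, fell in 17 and rose in 3 of 20: LARS1 stood at -1.46 scaled and -4.14 in share, IARS1 at -0.47 scaled and -3.14 in share and YARS1 at 0.36 scaled and -2.34 in share. Chaperones and translocon proteins of the endoplasmic reticulum fell in 16 and rose in 7 of 26, with the chaperones HSPA5 at -1.88 scaled and -4.55 in share and HSP90B1 at -1.65 scaled and -4.34 in share.

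Cell cycle lists were divided by member. Replication factors fell in 23 and rose in 4 of 28 (median -0.90): the helicase subunits MCM4 and MCM7 stood at -0.44 scaled and -3.13 in share and -1.8 scaled and -4.46 in share, and RRM1, which makes deoxynucleotides, at -1.76 scaled and -4.44 in share. Mitotic regulators fell in 15 and rose in 9 of 25 (median -0.54), where 39.3% of all genes fell and 34.6% rose. MKI67, the proliferation antigen, stood at -2.55 scaled and -5.22 in share, TOP2A, a topoisomerase, at -1.87 scaled and -4.56 in share, and UBE2C, a small ubiquitin-conjugating enzyme of mitosis, at 2.54 scaled and -0.11 in share, the latter not called (adjusted p = 0.468). Without fraction 8 replicate 3 UBE2C was called lower in share, at -0.34 (adjusted p = 2.33e-09). C2H2 zinc finger genes fell in 241 and rose in 50 of 411 (median -0.62), and ZNF703 of that list stood at -1.02 scaled and -3.68 in share.

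Extracellular matrix genes and their receptors fell in 41 and rose in 2 of 58 (median -1.53), all 58 with a lower share. The laminin chain LAMC1 stood at -2.38 scaled and -5.05 in share and the collagen COL14A1 at -2.65 scaled and -5.33 in share. These mRNAs are translated at the endoplasmic reticulum, and how much of its membrane entered the cytoplasmic preparation was not tested.

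Genes of the exosome, of which DIS3 is the catalytic part, went in both directions. Of 13 genes for its subunits and the DIS3 family 7 rose and 5 fell scaled (median 0.43), and all 13 had a lower share, beside 34.6%, 39.3% and 83.6% of all genes. EXOSC8 stood at 1.5 scaled and -1.18 in share, EXOSC2 at 0.58 scaled and -2.09 in share and EXOSC9 at -1.26 scaled and -3.94 in share. EXOSC8 and EXOSC9 belong to the barrel and EXOSC2 to the cap of the complex. Of 14 cofactors 5 rose and 6 fell, with the helicase MTREX at -0.78 scaled and -3.47 in share. Genes known to give circular RNAs were listed because the title of the study concerns those, but no row names a circular RNA, so these are counts of whole genes. Of 28 such genes 16 rose and 9 fell scaled (median 0.75), and 2 were higher and 22 lower in share, near the 7.66% and 83.6% of all genes, with SMARCA5 at 0.76 scaled and -1.93 in share and CAMSAP1 at 3.04 scaled and 0.36 in share.

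Genes were also ranked by size among those called in the same direction on both scales whose 6 and 6 libraries did not overlap on either, with at least 20 CPM on average. Non-overlap on both scales with a call held for 1003 genes called higher (of the 7.66%) and 5215 called lower (of the 39.3%). Below the SCARNA16 locus and RPPH1, the highest coding genes were RPLP1, KRT10, a keratin, at 5.51 scaled and 2.80 in share, and BOLA3, which helps to place iron-sulfur clusters in mitochondria, at 5.34 scaled and 2.63 in share. The lowest was ANAPC2 (chr9:137174784-137188560), part of the ligase that triggers anaphase, which went from 132–152 CPM (median 142) to 0.821–1.89 CPM (median 1.18), a 110.1-fold lower share at -4.12 scaled and -6.78 in share. After DIAPH1, CENPF and TPR came SPECC1, a coiled coil protein of the cytoskeleton, at -3.40 scaled and -6.08 in share. AKAP12, a scaffold for protein kinase A, went from 2138–2286 CPM (median 2258) to 32–42.8 CPM (median 42.0), at -3.09 scaled and -5.79 in share. VCAN, a matrix proteoglycan, stood at -2.93 scaled and -5.60 in share and CENPE, a kinetochore motor, at -2.89 scaled and -5.57 in share. These values are the ones that chose the genes.

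A few long genes were called higher and overlap short annotated inserts. RPL12P16, a processed pseudogene of RPL12, lies inside NBEAL1, and their mean levels ran in parallel: RPL12P16 went from 46.9 to 295 CPM and NBEAL1 from 85.2 to 301 CPM, at 5.35 scaled and 2.65 in share and 4.51 scaled and 1.82 in share. NBEAL1 also holds RPL7P14 and RPL23AP36, whose levels are not given here. CAMTA1, at 4.12 scaled and 1.42 in share, holds RPL37P9, while RANBP17, also looked up by name, holds no annotated ribosomal protein pseudogene. Of the 1071 tested coding genes that span at least 200 kb, 207 (19.3%) hold an annotated ribosomal protein pseudogene, and of the 21 of them called higher on both scales 6 (28.6%) do. The counting could not be checked for strand or for how it split overlapping rows, so the source of these counts was not tested. RANBP2, a long gene for a nuclear pore protein, stood at -1.43 scaled and -4.12 in share.

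Gene span, the distance from annotated start to end, followed the scaled fold weakly. The 555 coding genes shorter than 3 kb had a median of 1.13, or 0.64 without ribosomal protein genes, and 56.8% of them rose. Genes of 10 to 30 kb (3751) had a median of -0.47, and those of 30 to 100 kb (4281) of -0.45. Beyond 300 kb the median was 0.04 (553 genes). Spearman's rho of span with the scaled log2 fold was -0.068 over 13343 coding genes, which are not independent, and -0.037 without fraction 8 replicate 3. Span includes introns, and transcript or protein length was not used here.

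Fraction 8 replicate 3 held more of many RNAs than its replicates did. Of 8151 genes with at least 50 counts on average in WT fraction 8, 2596 (31.8%) were more than 1.5-fold above the mean of replicates 1 and 2 and 63 more than 1.5-fold below. Replicate 3 of fraction 7 had 71 and 62 such genes. SRM, spermidine synthase, named after its values were seen, had 8.15 and 9.03 CPM in replicates 1 and 2 of fraction 8 and 177 in replicate 3. Without this library 19605 genes were tested: 6466 rose and 7546 fell scaled, and 1399 were higher and 16487 lower in share. Of the 1448 genes higher on both scales 1355 were kept, and of the 7431 lower 7124. The medians of all genes were then -0.22 and -2.94. The counts of called genes moved by less than 1.5-fold, and GAPDH and MT-RNR1 were the named genes whose scaled fold changed sign.

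**Figure D4:**
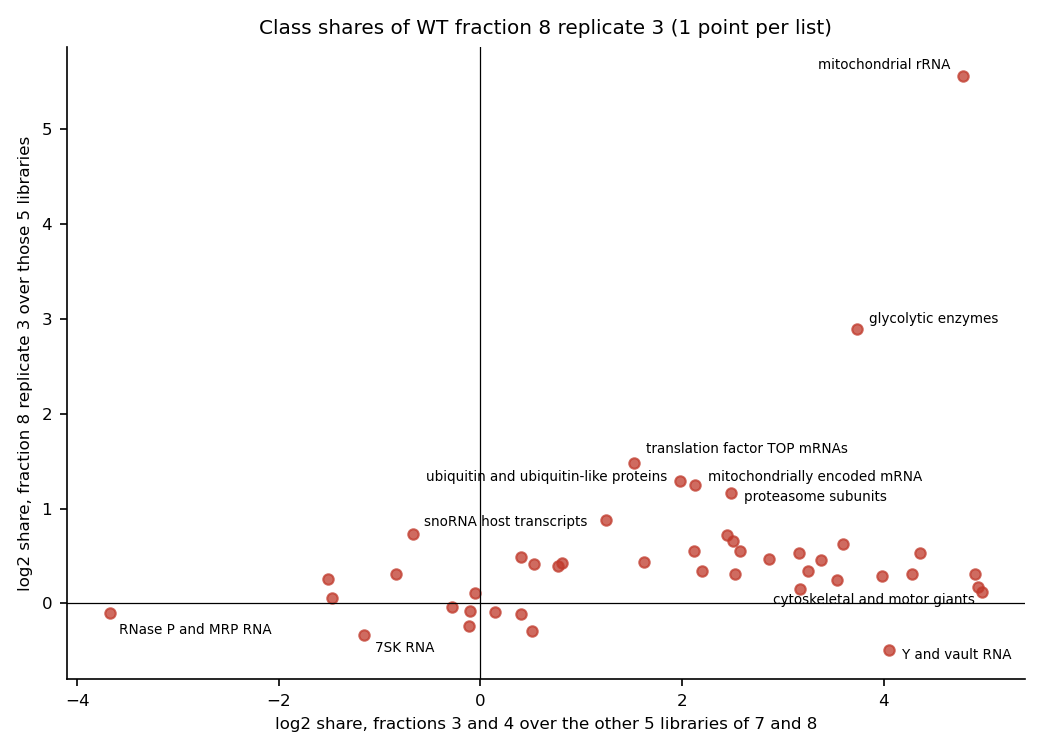
Each point is a gene class: log2 ratio of its share in WT fractions 3 and 4 over the other 5 libraries of fractions 7 and 8 (horizontal) and of its share in fraction 8 replicate 3 over the same 5 (vertical). Glycolytic enzymes, at 0.112% in that library against 0.0151% in the other 5, lie far above 0, while coiled coil proteins lie near 0.

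Between neighbouring fractions of a side edgeR called no gene. Fraction 8 against 7 gave 0 called genes (0%), with 1727 (9.13%) at an unadjusted p under 0.05, and DESeq2 called 11. Without fraction 8 replicate 3 edgeR called 1 gene of 19605, with 676 (3.45%) at an unadjusted p under 0.05. Fraction 4 against 3 gave 0 called genes by edgeR (0%) and 0 by DESeq2, with 830 (4.39%) and 933 at an unadjusted p under 0.05. A p that misses the threshold does not show that the fractions held the same RNA.

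In D146N the same labels often gave the opposite contrast: 10491 genes (55.5% of those tested) rose in one genotype and fell in the other, and 70 were called in a common direction. The difference between the WT and D146N contrasts was called for 14574 genes (77.1%), 6691 with a higher fold in WT and 7883 with a lower one. All 1448 genes higher on both scales in WT were among them, and 1445 fell in D146N. Of the 7431 lower on both in WT, 7098 differed and 5108 rose in D146N. RPPH1 stood at 7.20 in WT and -7.50 in D146N, RPLP1 at 5.52 and -5.49, and CENPF at -3.80 and 0.23, all scaled. Whether the reversal belongs to the protein or to the numbering of tubes cannot be told apart from these files.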

How the data were processed

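Ribosomal RNA depleted libraries of cytoplasmic RNA were made with KAPA kits and sequenced on an Illumina instrument, per the labels' protocols. The deposited table holds expected counts per Ensembl gene (61853 rows, 24 libraries), not normalized by the authors. The tools in the submitters' processing notes, given without roles or options, are featureCounts 1.5.1, HISAT2 2.1.0, Bowtie2 2.3.5 and SAMtools, and the build is hg38. Many values were not whole: 73.3% of those above 0 were within 0.005 of a whole number and 97.0% were a multiple of a sixth, to within 0.01. They were rounded before fitting, although the tests had been planned for whole counts. Symbols were found for 99.92% of rows, and positions, promoter windows and the hairpin came from RefSeq tables of GRCh38.p14.

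The tests used edgeR 4.0.16 in R 4.3.3: TMM, filterByExpr by group, and a quasi-likelihood fit (robust) with 1 mean for each of the 8 groups, over all 24 libraries. The contrast was the mean of WT fractions 7 and 8 minus that of 3 and 4, with Benjamini-Hochberg adjustment over 18907 genes. The fit in share had all normalization factors at 1. TMM factors averaged 2.51 in WT fractions 3 and 4 and 0.365 and 0.426 in WT fractions 7 and 8. The biological coefficient of variation was 13.8%. Class shares used the exact two-sided permutation test of the mean logit share within the 3 replicate sets. Alternatives were DESeq2 1.42.0, limma 3.58.1 (voom), other scalings, filters, fractions and libraries, and the scripts were tested on simulated data. Library totals in WT were 21.2 to 33.0 M counts. Rows whose counts nearly equalled those of another row in all libraries (8 of them, to within 0.1% where counts were high) were named once. Members, lists and the rule for named genes were chosen with earlier results of these data known. The rule takes DIS3, up to 4 abundant members of each list, the 10 most abundant rows, 12 ranked genes each way, and the shortest and longest of the ranked pool; not every gene it takes is printed, and a few genes are not reported here. Y-linked genes were left out.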

Additional observations from a re-analysis of the deposited data

Results flagged for a closer look

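In 33 of 100 groups of 6 libraries tested (50 classes on each side), 1 library's share of counts lay far from the other 5. Chance flags a single group about 1 time in 20. The groups share libraries and totals and are not independent, so their count cannot be set against that rate. In 31 of the 33 the library was WT fraction 8 replicate 3. Its share was lower than in the other libraries of fractions 7 and 8 for RNase P and MRP RNA (15.3%, nearest 16.3%), 7SK RNA (3.45%, nearest 4.24%), Y and vault RNA (0.000671%) and replication dependent histones (1.32%, nearest 1.55%).

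It was higher for small subunit ribosomal proteins (6.58%, nearest 5.62%), mitochondrially encoded mRNA (1.85%, nearest 0.823%), translation factor TOP mRNAs (0.776%, nearest 0.287%), snoRNA host transcripts (0.556%, nearest 0.343%), Cajal body RNA (0.297%) and glycolytic enzymes (0.112%, nearest 0.0156%). Its shares were also higher for mitochondrial ribosomal RNA (0.0309%), mitochondrial ribosomal proteins (0.117%), RNA polymerase II subunits (0.0338%), replacement histones (0.0364%), ubiquitin and ubiquitin-like proteins (0.0643%), small actin binding proteins (0.0448%) and proteasome subunits (0.0513%). The same held for RNase P and MRP proteins (0.00785%), signal recognition particle proteins (0.00826%), core proteins of guide RNA particles (0.0218%), proteins of the endoplasmic reticulum (0.0619%), replication factors (0.0235%) and mitotic regulators (0.0485%). Higher shares were found too for cytoskeletal and motor giants (0.0182%), chromatin regulators (0.0263%), C2H2 zinc finger proteins (0.0784%), collagens, laminins and integrins (0.0065%), exosome subunits (0.012%), exosome cofactors (0.00729%), circular RNA host genes (0.0534%) and hepatocyte markers (0.0104%, nearest 0.0032%).

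The other 2 libraries were WT fraction 7 replicate 1, with 6.57% of counts in large subunit ribosomal proteins (nearest 7.04%), and WT fraction 3 replicate 2, with 0.309% in long noncoding RNAs (nearest 0.295%). The contrast of fractions 7 and 8 against 3 and 4 differed between WT and D146N for 14574 genes by the edgeR interaction test.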

How the results depend on the processing

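On library totals without factors 1448 genes were called higher and 15808 lower. Other scalings, filters, tools, fractions and sets of libraries gave 5763 to 8115 higher and 6196 to 8328 lower, and leaving out each WT library gave 6240 to 6572 and 7305 to 8019. In share, leaving out each library gave 1399 to 1490 higher and 16087 to 16487 lower, and 2338 were higher over a total without small, mitochondrial and doubled rows. Library totals reversed the scaled log2 fold of 25 of the 130 named genes, as the 2.66 shift implies: SRM (-0.89), RNU1-4 (-1.07), YARS1 (-2.34), PSMA5 (-1.21), H4C14 (-1.34), H3C15 (-0.11), SRP9 (-2.29), H2AZ1 (-0.65), SMARCA5 (-1.93), RACK1 (-1.09), RPS6 (-0.0346), EXOSC2 (-2.09), RPP30 (-1.45), GAPDH (-2.27), EXOSC8 (-1.18), DIAPH3 (-2.46), RN7SL1 (-0.37), RN7SL2 (-0.51), UBB (-1.09), SNRPB (-1.54), NOP56 (-1.97), UBE2C (-0.11), MT-RNR1 (-1.93), MT-CO1 (-2.33) and MT-CO3 (-0.36). Of the other 2730 gene values on the scaled side, 2707 kept direction and side of the threshold, 17 lost the call and 6 reversed, all in 2 genes. GAPDH was -0.78 for fraction 7 against 3, -0.18 by voom and -0.79 to 0.49 when single libraries were left out. MT-RNR1 was -1.29, -1.78 and -3.54 to 0.86 in the same settings. In share, the total without small, mitochondrial and doubled rows reversed H3C15 (0.57), H2AZ1 (0.0128), RPS6 (0.61), RN7SL1 (0.31), RN7SL2 (0.16), UBE2C (0.55) and MT-CO3 (0.29). Leaving out single libraries moved H2AC19 between -0.000697 and 0.0885 and RPS6 between -0.41 and 0.10.

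The log2 ratio of class shares for fraction 7 against 3 and 8 against 4 was 3.67 and 3.64 for RNase P and MRP RNA and -4.99 and -4.83 for coiled coil proteins, both near the pooled value. Counting doubled rows once in the total reversed the log2 ratio of complex I from -0.16 to 0.0648 and ended its call (exact permutation p = 0.0926). For fraction 8 against 7, alternatives chosen after seeing the data called 11 genes by DESeq2, 1 on library totals and 1 without WT fraction 8 replicate 3. The Spearman coefficient of gene span was -0.037 without that library. Length of transcript or protein could not be run. Same-numbered libraries deviated together with r of -0.109 to 0.0716 (18 pairs), and libraries of other numbers with -0.0967 to 0.118, so the gene fits did not pair them. The class test kept the replicate sets that the study describes. Permuting labels over all 12 libraries instead (924 arrangements, chosen after seeing the data) gave 8 classes higher, 35 lower and 2 not called, the same call for each class (exact permutation, smallest p = 0.00216). In either test 40 classes stood at the smallest p, so the shared calls add little. The replicate block gave 6499 and 7360 scaled and 1444 and 15771 in share, and changed 1 named call, SRM in share.

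Depth limits genes of a few counts, and reads without molecular identifiers are not independent molecules.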
